A study of Mus musculus with 3 samples.

Results

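NF-kappa B is a family of dimeric transcription factors that act at the centre of inflammatory gene control in monocytes and macrophages. The 10 genes described here are its 5 subunits (Nfkb1, Nfkb2, Rela, Relb and Rel), the inhibitors of the I-kappa B family Nfkbia, Nfkbib, Nfkbie and Nfkbiz, and the feedback gene Tnfaip3, which encodes A20. They were taken by name, and all 10 were found among the 22238 genes listed in all 3 libraries. In resting cells the dimers are held in the cytoplasm by I-kappa B proteins. Signals from Toll-like receptors, the IL-1 receptor or TNF receptors activate the IKK kinase complex, which marks I-kappa B for destruction and frees the dimers to enter the nucleus. Several of the genes they switch on encode their own inhibitors and subunits, so that the transcripts of the family are themselves part of the response.

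RNA-Seq had been done on 1 library per population, from female C57BL/6J mice aged 10 to 12 weeks in which EAE, a model of multiple sclerosis, was induced with MOG peptide in complete Freund's adjuvant and with 250 ng of pertussis toxin at 2 and at 24 h. All 3 populations came from such immunized mice at days 14 to 15, at the peak of disease, and none from untreated mice. The titles of all 3 libraries carry the label WT, for wild type. Bone marrow monocytes (BM-Mono) were sorted as Ly6Chi Ly6G- CD11c- cells, spinal cord monocytes (SC-Mono) as CD64+ Ly6Chi Ly6G- cells, and spinal cord monocyte-derived APCs (SC-APC) as CD64+ Ly6Clow/- Ly6G- cells, each within CD45+ CD11b+. Cells of 13 mice from 2 experiments were pooled for the bone marrow library and cells of 18 mice from 3 experiments for each spinal cord library. With 1 library each there is no replicate check, no test of the populations was possible, and every interval covers counting error only. One label of the APC library names the bone marrow, whereas its title and tissue label name the spinal cord, as in the text of the study.

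The libraries held 33280643, 27283795 and 28209589 estimated reads for BM-Mono, SC-Mono and SC-APC. All 8 defining monocyte markers were above 3 TPM in each library, with Ly6c2 the most abundant in both monocyte libraries. Markers of other cells moved between the libraries as well. The 9 neutrophil genes summed to 7246, 1079 and 1157 TPM in BM-Mono, SC-Mono and SC-APC, with 7, 7 and 6 of them above 3 TPM. S100a8 and S100a9 made up most of each sum, and other genes of the list differed from it. Ly6g, the marker used to exclude neutrophils in each sort, stood at 2.57, 1.71 and 1.64 TPM, below 3 TPM in each library. Ngp stood at 186, 24.3 and 157 TPM and Ltf at 27.6, 9.76 and 34.1 TPM, both called higher in SC-APC than in SC-Mono. Cxcr2 stood at 2.56, 9.10 and 6.75 TPM. Mpo, Elane and Camp were called lower in SC-Mono than in BM-Mono, as were S100a8, S100a9, Ngp and Ltf. The 7 T cell genes summed to 0.507, 55.4 and 80.9 TPM, with 6 of 7 above 3 TPM in both spinal cord libraries and Trac, Cd3g and Cd4 at 0 reads in BM-Mono. The 6 microglia genes summed to 12.8, 86.7 and 226 TPM, with 1, 5 and 6 of them above 3 TPM. The genes of B cells, NK cells, cDCs, CNS-associated macrophages, endothelium and neural cells each summed to at most 75.2 TPM in each library. The part of these cells in the values below was not tested. In such sorted pools, fewer cells with a transcript and less of it per cell cannot be told apart.

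The promoters of 7 of the 10 genes were matched in RefSeq (GRCm38.p6), as 10 windows of 250 bases before an annotated start. They were searched on both strands for the NF-kB consensus motif, the 10-base kappa B site, because members of the family are known to be induced by NF-kappa B itself. The motif was present in 7 of these 10 windows and for 5 of the 7 genes, Nfkb2, Rel, Nfkbia, Nfkbie and Tnfaip3, with some genes having several windows. For comparison, 7.25% of all 32851 such windows and 8.23% of the 27025 genes held it. Rela and Nfkbib had no match in their windows. A match is only a run of letters, not a measured binding site. Stretches from the promoters of these 5 genes are printed because they hold a match, and capitals mark it. The Nfkbia window runs to the base before the start (chr12:55492648-55492897, minus strand), and its match begins 29 bases before it. The others are short stretches around a match for Tnfaip3 (chr10:19015411-19015447, minus strand, 12 bases before a start), around the only match for Nfkbie (chr17:45555569-45555628, plus strand, 106 bases), around 2 overlapping matches for Rel (chr11:23771026-23771086, minus strand, 92 bases) and around 2 overlapping matches for Nfkb2 (chr19:46304689-46304717, plus strand, 39 bases). Tnfaip3 held 1 further match, 125 bases before the same start, and Nfkb2 held further matches, 1 of them 11 bases before the same start and the others before other annotated starts. The printed Nfkb2 stretch overlaps annotated exons of Nfkb2 itself and of the non-coding gene AC114539.1, and the gene begins further upstream, at 46304320. The other printed stretches overlap no annotated exon. Both Tnfaip3 matches, however, lie inside the gene, which begins further upstream, at 19015657.
Nfkbia: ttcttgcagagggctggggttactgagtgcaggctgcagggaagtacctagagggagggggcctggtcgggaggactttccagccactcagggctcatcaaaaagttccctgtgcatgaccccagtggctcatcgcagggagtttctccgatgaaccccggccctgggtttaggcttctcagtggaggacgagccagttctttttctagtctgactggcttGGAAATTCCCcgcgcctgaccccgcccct
Tnfaip3: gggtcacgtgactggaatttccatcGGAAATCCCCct
Nfkbie: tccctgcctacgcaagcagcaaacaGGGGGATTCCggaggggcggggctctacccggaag
Rel: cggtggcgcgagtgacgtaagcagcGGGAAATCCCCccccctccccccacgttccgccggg
Nfkb2: gatcgtcacGGGAATTCCCCccctcgggg

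Levels are given as TPM, which is corrected for transcript length, rescaled to the same sum over the common genes in each library. Ratios were taken from estimated reads scaled by median-of-ratios size factors, with a 98% counting interval. To be called, a gene needed its whole interval outside 2-fold and more than 3 TPM in either library of the pair, a rule modelled on the GFold-based definition of the study. From BM-Mono to SC-Mono, 8 of the 10 genes were called higher and 0 lower. Of the 10072 genes active in this comparison, 13.8% were called higher and 10.7% lower, 24.4% in all. The median log2 ratio of the 10 genes was 2.50, whereas that of all active genes was -0.145. From SC-Mono to SC-APC, 0 of the 10 were called in either direction, against 1.93% of 9734 active genes called higher and 1.7% lower, 3.63% in all. The median was then -0.45 over the 10 genes and -0.04 over all active genes. No p-value stands behind these calls, since each compares 1 library with another. Of all genes called in the second step, 53.3% were higher, but 42.0% once reads were divided by effective length, and of those called in the first step 56.4% were higher, but 46.4% once all genes of the monocyte libraries entered. The same ratios on TPM were lower in the first step, by 0.29 on the log2 scale for the median active gene, and are given where they matter.

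**Figure D1:**
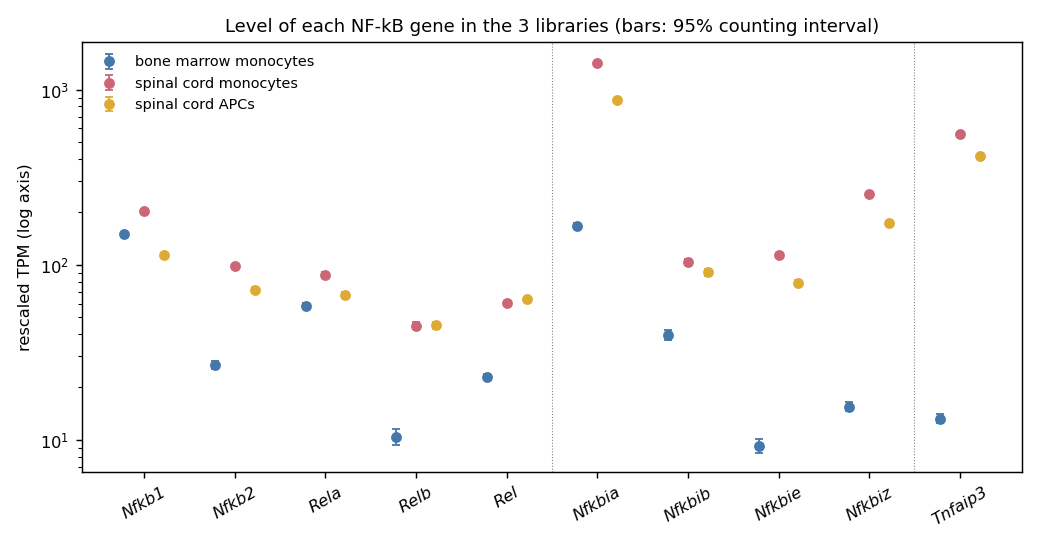
Rescaled TPM on a log axis for each of the 10 genes in the 3 libraries, 1 point per library with its 95% counting interval. Every gene is lowest in bone marrow monocytes except Nfkb1, which is lowest in APCs at 114 TPM, and the widest spread is that of Tnfaip3, from 13.2 to 555 TPM.

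Among the subunits, Nfkb1 encodes p105, the precursor of the DNA-binding subunit p50. It lies on chromosome 3 of GRCm38 (135584655 to 135691547, minus strand). It had 9032 reads in BM-Mono, 10914 in SC-Mono and 7226 in SC-APC, or 150.5, 202 and 114 TPM. The level was thus highest in SC-Mono and lowest in SC-APC, and the 95% intervals of the 3 libraries did not overlap. The log2 ratio of SC-Mono over BM-Mono was 0.75 (98% interval 0.71 to 0.80) and that of SC-APC over SC-Mono was -0.75 (-0.80 to -0.70), neither of them called. SC-APC over BM-Mono gave 0.00 on reads and -0.41 on TPM, so that the direction of this last difference depends on the scaling.

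Rela encodes p65, the subunit with a strong activation domain that forms the classical dimer with p50. It stood at 58.5 TPM (2618 reads) in BM-Mono, 87.3 TPM (2884 reads) in SC-Mono and 66.9 TPM (2820 reads) in SC-APC. Its log2 ratio was 0.62 (0.53 to 0.71) in the first step, the smallest of the 10 genes, and -0.19 (-0.28 to -0.10) in the second. Neither Nfkb1 nor Rela was called in any of the comparisons.

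Nfkb2 encodes p100, which is processed to p52 in the non-canonical pathway and also restrains RelB. It had 1587, 5302 and 4302 reads, or 26.7, 98.8 and 72.1 TPM, in BM-Mono, SC-Mono and SC-APC. Both spinal cord libraries lay well above the bone marrow library. The log2 ratio was 2.22 (2.13 to 2.32) in the first step and -0.46 (-0.53 to -0.39) in the second. Parts of its exons overlap Psd and the non-coding gene AC114539.1 on the other strand, over 299 and 531 bases, and whether the counting used strand is not given in the sources used here.

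Relb, the partner of p52, was the scarcest subunit in each library. It had 347 reads in BM-Mono, 1705 in SC-Mono and 1635 in SC-APC, or 10.3, 44.9 and 45.1 TPM. The levels of both spinal cord libraries had overlapping 95% intervals, 42.8 to 47.0 TPM and 43.0 to 47.4 TPM. The first step gave a log2 ratio of 2.78 (2.58 to 2.98), the largest among the subunits, and the second gave -0.22 on reads, with the opposite sign, 0.09, once these were divided by effective length.

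Rel encodes c-Rel, which drives the p40 subunit of IL-12 in macrophages. It had 3532, 8447 and 9597 reads, or 22.9, 60.6 and 63.8 TPM. Its ratio of SC-APC over SC-Mono was 0.03 (-0.02 to 0.08), an interval that includes 0, and the ratios of the other 9 genes were below 0 on reads. The first step gave 1.74 (1.67 to 1.81). Relb, Rel and Nfkb2 were each called higher in SC-APC than in BM-Mono as well, with log2 ratios of 2.56, 1.77 and 1.76. Of the 10190 genes active in that comparison 14% were called higher and 11.8% lower, 25.8% in all, and 8 of the 10 members, all but Nfkb1 and Rela, were called higher. The reads of Nfkb1, Relb and Rel were not whole numbers in at least 1 library. As transcripts were pooled per gene, such a fraction is left where reads also fit transcripts counted under another gene.

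**Figure D2:**
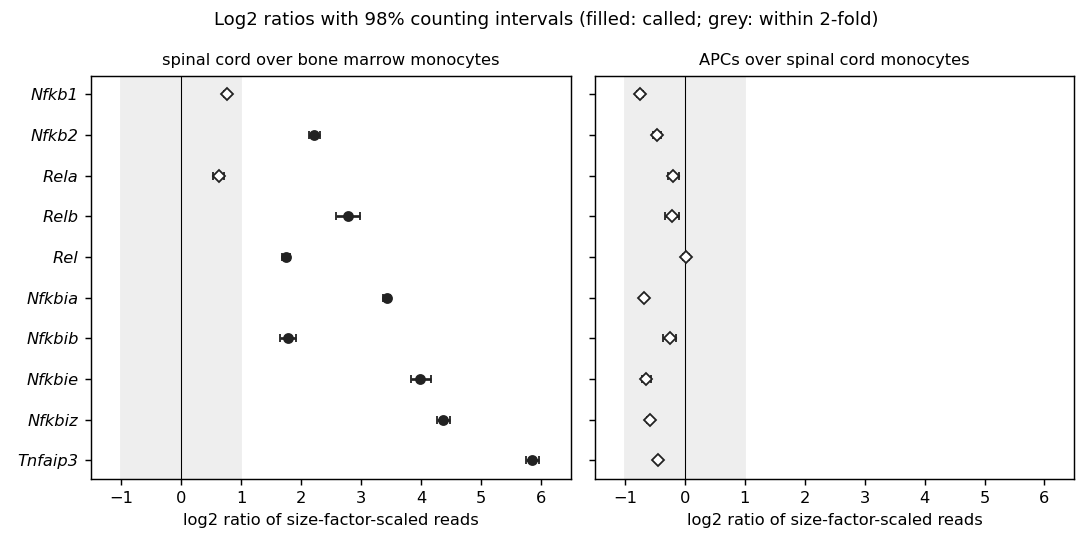
Log2 ratios of size-factor-scaled reads with 98% counting intervals for each of the 10 genes, spinal cord over bone marrow monocytes on the left and APCs over spinal cord monocytes on the right, with called genes filled. On the left 8 genes lie beyond a 2-fold change, up to 5.86 for Tnfaip3, and on the right all 10 lie within it.

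Because the 5 subunits moved by different amounts, their make-up differed between libraries. Nfkb1 made up 56.0% of the summed TPM of the subunits in BM-Mono, 40.9% in SC-Mono and 31.4% in SC-APC. Relb went from 3.85% to 9.09% and 12.5%, Rel from 8.53% to 12.3% and 17.6%, and Nfkb2 from 9.93% to 20.01% and 19.95%. Rela kept between 17.7% and 21.8%. The ratio of Rela to Relb, the activating subunits of the classical and non-canonical pathways, was 5.66 in BM-Mono, 1.95 in SC-Mono and 1.48 in SC-APC on TPM. That of Nfkb1 to Nfkb2, the precursors of p50 and p52, was 5.64, 2.05 and 1.58 in the same order. On TPM the order of the populations was the same in both ratios. On reads, Relb had a slightly lower log2 ratio of SC-APC over SC-Mono (-0.22) than Rela (-0.19), so that the order of the spinal cord libraries in the ratio of Rela to Relb turned. These shares compare transcripts within a library and say nothing of the amount of protein or of its processing.

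**Figure D3:**
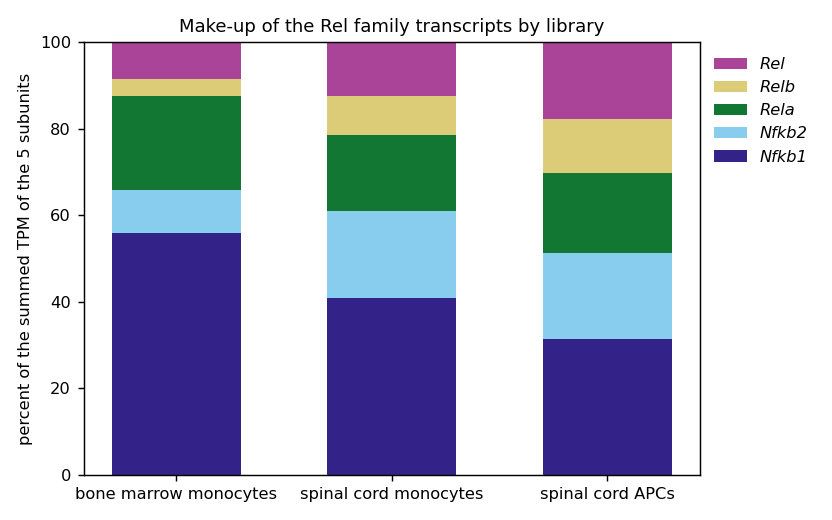
Stacked bars of each subunit's percent of the summed TPM of the 5 subunits, 1 bar per library. The share of Nfkb1 is 56.0%, 40.9% and 31.4% from left to right, while those of Relb and Rel are higher in APCs than in either monocyte library.

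Nfkbia encodes I-kappa B alpha, the inhibitor that is destroyed first on stimulation and then made anew from its induced transcript. It was the most abundant of the 10 genes in each library, at 4499 reads in BM-Mono, 34585 in SC-Mono and 24172 in SC-APC. In TPM these were 167 (95% interval 162 to 172), 1422 (1408 to 1437) and 873 (862 to 884). It was the 870th most abundant of the common genes in BM-Mono, the 122nd in SC-Mono and the 190th in SC-APC. The log2 ratio was 3.42 (3.37 to 3.48) in the first step, a 10.7-fold difference on reads and 8.51-fold on TPM. In the second step it was -0.67 (-0.70 to -0.65), within the 2-fold limit of the call.

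Nfkbib, which encodes I-kappa B beta, differed least among the inhibitors. It had 840, 2066 and 1935 reads, or 39.6, 104 and 90.7 TPM. The log2 ratios were 1.78 (1.64 to 1.92) and -0.25 (-0.36 to -0.14). Its exons overlap Sirt2 and Ccer2 on the other strand, over 42 and 314 bases.

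Nfkbie, which encodes I-kappa B epsilon, was the scarcest of the 10 genes in BM-Mono, at 441 reads or 9.28 TPM. It had 5023 reads or 114 TPM in SC-Mono and 3584 reads or 79.1 TPM in SC-APC. Its log2 ratio was 3.99 (3.83 to 4.16) in the first step and -0.64 (-0.72 to -0.57) in the second. In BM-Mono it was exceeded by Nfkbib, 9.28 against 39.6 TPM, whereas in SC-Mono it stood slightly above it and in SC-APC slightly below.

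Nfkbiz encodes I-kappa B zeta, a nuclear member that acts with p50 to turn on a second set of genes, Il6 among them. It had 1110, 16465 and 12235 reads in BM-Mono, SC-Mono and SC-APC, or 15.4, 254 and 173 TPM. Both spinal cord libraries were more than 10 times above the bone marrow library. The log2 ratios were 4.37 (4.27 to 4.48) and -0.58 (-0.62 to -0.54).

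Tnfaip3 encodes A20, a ubiquitin-editing enzyme that ends signalling upstream of IKK. It lies on chromosome 10 of GRCm38 (19000910 to 19015657, minus strand). It had 987 reads in BM-Mono, 40973 in SC-Mono and 33642 in SC-APC, or 13.2, 555 and 415 TPM. This was the largest difference among the 10 genes, a log2 ratio of 5.86 (5.75 to 5.97), or 57.9-fold on reads and 42.0-fold on TPM. In SC-APC over SC-Mono it was -0.44 (-0.47 to -0.42). The ratio of Tnfaip3 to Rela transcripts was 0.226 in BM-Mono, 6.36 in SC-Mono and 6.20 in SC-APC on TPM.

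The balance of inhibitor and subunit transcripts differed between the libraries. The summed TPM of the 5 subunits was 269 in BM-Mono, 494 in SC-Mono and 362 in SC-APC. That of the cytoplasmic inhibitors Nfkbia, Nfkbib and Nfkbie was 216, 1640 and 1043. The ratio of these inhibitors to the subunits was therefore 0.803, 3.32 and 2.88, with Nfkbia making up 77.4%, 86.7% and 83.7% of the inhibitor sum. In BM-Mono the subunit transcripts exceeded those of the inhibitors, and in both spinal cord libraries the reverse held. This ratio is taken within each library, so that scaling between libraries does not enter it. Effective lengths do enter it, and these differed between libraries, as for Rela with 2094, 1705 and 2021 bases in BM-Mono, SC-Mono and SC-APC. The transcripts used to quantify SC-APC also differed from those of both monocyte libraries.

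The order of the 10 genes changed with it. In BM-Mono, Nfkbia and Nfkb1 came first and Relb and Nfkbie last, the last pair with overlapping 95% intervals. In SC-Mono, Nfkbia, Tnfaip3 and Nfkbiz came first, followed by Nfkb1 at 202 TPM, and Nfkbib and Nfkb2 had overlapping intervals. In SC-APC the first 4 were the same, and Rela and Rel, at 66.9 and 63.8 TPM, had overlapping intervals. Relb was the last of the 10 in both spinal cord libraries.

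Of the other nuclear I-kappa B genes, Nfkbid, which encodes I-kappa B NS, was called higher in SC-Mono and Bcl3 was not. Nfkbid had 329, 3376 and 3328 reads, or 9.49, 102 and 90.2 TPM, with a log2 ratio of 3.84 in the first step. Bcl3, which binds p50 and p52 dimers, stood at 43.7, 63.9 and 47.5 TPM, with a log2 ratio of 0.74. In the second step the ratios were -0.18 and -0.13.

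Of 11 genes of the IKK complex and its activating kinases, 2 were called higher in SC-Mono and 0 lower, and 0 were called in the second step. The share called higher, 18.2%, lay near the 13.8% of all active genes. In the second step only 3.63% of all active genes were called, so that 0 of 11 does not set the list apart. The median log2 ratio of the 11 was -0.19 in the first step. The catalytic subunits were among those not called in either step, with Ikbkb at 138, 75.4 and 36.7 TPM and Chuk at 50.7, 57.9 and 20.1 TPM. Ikbkb was called lower in SC-APC than in BM-Mono, with a log2 ratio of -1.25. For Ikbkg, the regulatory subunit NEMO, the levels were 14.2, 10.7 and 14.0 TPM. Map3k14, the NIK kinase that starts p100 processing, had 18.5, 12.02 and 15.2 TPM. The called genes were Map3k8, which encodes the Tpl2 kinase held by p105, at 18.03, 57.1 and 29.2 TPM with a log2 ratio of 2.06, and Ikbke, at 57.8, 116 and 53.5 TPM with 1.13 (1.05 to 1.21). With total reads as the scaling, or with all genes of the monocyte libraries, 1 of these 2 was called. The transcripts used to quantify SC-APC differed from those of both monocyte libraries, and for Chuk the effective length was 1974 bases in SC-Mono and 3249 bases in SC-APC. Its ratio of SC-APC over SC-Mono was -0.86 on reads and -1.53 on TPM. For Ikbkg the sign turned, at -0.27 on reads (723 and 670) and 0.39 on TPM, with effective lengths of 3488 and 2296 bases. The same ratio was -0.49 on reads and -1.04 on TPM for Ikbkb, and -0.67 and -1.11 for Ikbke.

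Among 20 adaptors and ubiquitin ligases that link receptors to IKK, 19 were active in the first step, and 5 were called higher, 26.3% against 13.8% of all active genes, and 0 lower. Traf1, which sits with Traf2 at TNF family receptors, went from 16 reads to 1322 and 1181, or from 0.683 to 53.4 and 37.1 TPM, with a log2 ratio of 6.79 in the first step. Irak2, a kinase-like adaptor of the IL-1 and Toll-like receptors, had 32.96, 239 and 91.7 TPM and a ratio of 2.62. From SC-Mono to SC-APC its log2 ratio was -0.63 on reads (7414 and 5336) and -1.38 on TPM, with effective lengths of 1601 and 2793 bases. The protease gene Malt1 had 44.3, 194 and 133 TPM and a ratio of 2.12. Traf6 and Traf3 each had a ratio of 1.55.

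Of 14 other negative regulators, 2 were called higher in the first step and 0 lower, and 13 were active in the second step with 0 called. The share called higher in the first step, 14.3%, lay near the 13.8% of all active genes, and so few genes were called at all in the second, 3.63%, that 0 of 13 does not set the list apart. The called genes both encode A20-binding proteins. Tnip1 stood at 36.5, 122 and 114 TPM, with a log2 ratio of 2.06, and Tnip3 went from 19 reads to 676 and 618, with a ratio of 5.59. On TPM the ratio of Tnip3 was 6.91. Its effective lengths were 3424, 1116 and 1853 bases in BM-Mono, SC-Mono and SC-APC. From SC-Mono to SC-APC the log2 ratio of Tnip3 was -0.29 on reads and -0.97 on TPM. The deubiquitinases Cyld, at 36.8, 26.97 and 24.2 TPM, and Otulin, at 62.2, 41.3 and 35.1 TPM, were not called. Their log2 ratios in the first step were -0.24 and -0.39.

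All 20 genes of a list of known NF-kappa B targets were called higher in SC-Mono than in BM-Mono, against 13.8% of all active genes. Their median log2 ratio was 4.18. In the second step 0 of the 20 were called and the median was -0.38. With only 3.63% of all active genes called in that step, 0 of 20 does not set the list apart. The largest ratios were those of Il1b (9.58), Ptgs2, the inducible cyclooxygenase (9.14), the surface protein gene Cd83 (8.96) and the chemokine gene Cxcl1 (6.93). Ptgs2 had 113 reads in BM-Mono, 46071 in SC-Mono and 45275 in SC-APC, or 1.26, 580 and 520 TPM. Cd83 had 14, 5234 and 6192 reads, or 0.345, 139 and 133 TPM. The list was written with earlier results of these libraries known, so that its direction is no independent evidence. Sod2, picked out after its values were seen, had 604 TPM in SC-Mono and 98.7 TPM in SC-APC, although its reads were 13459 and 11093, with effective lengths of 1150 and 5394 bases.

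**Figure D4:**
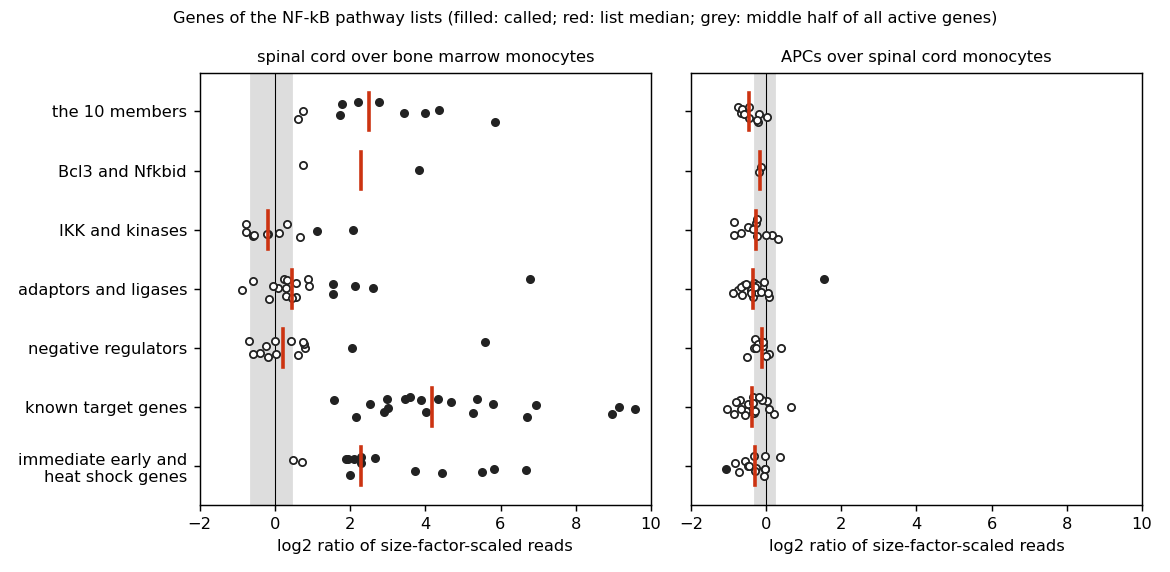
Log2 ratio of each active gene of the 7 lists, spinal cord over bone marrow monocytes on the left and APCs over spinal cord monocytes on the right, with called genes filled, list medians in red and the interquartile range of all active genes in grey. On the left the 10 members, the targets and the immediate early genes have medians of 2.50, 4.18 and 2.28, whereas those of the kinases, adaptors and negative regulators lie between -0.19 and 0.46.

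Immediate early and heat shock genes, which respond to handling and stress of cells as well as to inflammation, moved in the same step. Of 14 such genes, 12 were called higher in SC-Mono than in BM-Mono and 0 lower, with a median log2 ratio of 2.28. The share called higher was 85.7%, against 13.8% of all active genes. This list too was chosen with earlier results of these libraries known. The largest ratios were those of Hspa1b (6.68), Hspa1a (5.82), Atf3 (5.52) and Nr4a1 (4.46). Hspa1a stood at 28.3, 1272 and 1040 TPM. The reads of Hspa1a and Hspa1b were not whole numbers in any library, so that part of them also fit transcripts of other genes. The most abundant in SC-Mono were Fos, Junb and Zfp36, and Fos, at 1665, 2143 and 1769 TPM, was already high in the bone marrow and was not called. In the second step 1 of the 14, Atf3, was called lower, with a log2 ratio of -1.06, where 1.7% of all active genes were called lower. With total reads as the scaling, or an assumed coefficient of variation of 0.2 or 0.4 between libraries, 0 of the 14 were. Only the spinal cord cells had been digested with collagenase and passed over a Percoll gradient, whereas bone marrow cells were flushed and enriched with a kit. Tissue, isolation procedure, sorting gate and the number of mice and experiments pooled differed together. Their parts in the first step cannot be told apart. Both spinal cord populations shared the procedure.

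The active genes whose pair of ratios lay closest to that of Nfkbia, among 9373 genes outside the lists, were Rnf19b, Ptger4, Clic4, Ccno and Col4a1. Rnf19b, a ubiquitin ligase gene, had log2 ratios of 3.47 and -0.64, at a distance of 0.06, and Ptger4, a prostaglandin E2 receptor gene, had 3.37 and -0.73. Clic4 had 3.35 and -0.58. With 3 libraries such a likeness is a description of 2 values only.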

How the data were processed

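RNA of 3 sorted populations was sequenced, 1 pooled library each. Per the labels and the study's methods, the authors quantified genes with SALMON (version 0.14.1 in the submitters' processing notes) on GENCODE vM22 and deposited TPM, estimated counts of reads and effective lengths. TPM, as deposited, carries the authors' correction for effective length and depth, whereas the deposited estimated counts carry none. The deposited values cover 54432 genes for either monocyte library but 22242 for SC-APC, whose transcript set thus differed in a way that the sources used here do not describe.

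The 22238 common genes were analysed. They held 84.9% (BM-Mono), 85.3% (SC-Mono) and 100.0% (SC-APC) of the deposited TPM, which was rescaled to the same sum. Estimated counts were rounded to 32115707, 26116588 and 28209327 reads. Symbols and positions came from GENCODE M21 on GRCm38, matched by identifier and version for 99.0% of genes, and promoters from RefSeq on GRCm38.p6. Reads were scaled by size factors (median of ratios). With a prior of 1 read, each library's level was given a gamma posterior, and the log2 ratio is the median, and its interval the percentiles 1 and 99, of the quotient. The GFold tool was not used. For TPM, 95% Wilson intervals were computed from each gene's share of reads. Both kinds of interval leave out biological spread and the copying of molecules by PCR. The calculation was tested on data simulated from SC-Mono with counting error only, so that this says nothing of the spread between libraries or of differing transcript sets.

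The genes named are the 10 members, Bcl3, Nfkbid, 8 IKK, kinase and regulator genes listed in the rule, up to 4 called genes with the largest ratio per list and comparison, the 3 most abundant immediate early genes and the 5 genes nearest Nfkbia. The members and lists were chosen with earlier results of these data known. A result that fell under the rule is not reported here. Alternatives were total reads or TMM factors, reads divided by effective length, TPM limits of 4 or none, assumed coefficients of variation of 0.2 and 0.4 between libraries, 0.5 prior reads, a plain 2-fold change, all genes of the monocyte libraries, and TPM as deposited. The software was edgeR 4.0.16 (for TMM factors only) in R 4.3.3, and scipy 1.17.1, pandas 2.3.3, matplotlib 3.10.9 and numpy 2.4.6 in Python 3.11.15.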

Additional observations from a re-analysis of the deposited data

How the results depend on the processing

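No paired analysis was possible because each population has 1 library, and for the same reason no library could be left out. Of 280 log2 ratios of the 10 genes recomputed under the alternatives, 262 kept their direction and their call. Part of this was fixed in advance. Changed TPM limits could not alter any of them, since all 10 genes lay above 4 TPM in every library. The assumed coefficients of variation and the plain 2-fold change act on the call and hardly on the ratio. The ratio of SC-APC over BM-Mono for Nfkb1 changed sign with total reads (-0.13), TMM factors (-0.0017) and reads divided by effective length (-0.082), and that of SC-APC over SC-Mono for Relb with effective length (0.090), none of them called. With an assumed coefficient of variation of 0.2 between libraries, 6 of the 10 genes were still called higher in SC-Mono and 5 in SC-APC over BM-Mono, and with 0.4 these were 4 and 3. Over all active genes, 906 of 10072 and 972 of 10190 were called higher with 0.2, and 598 and 689 with 0.4. The same 2 assumptions left 1 and 0 of the kinases, 3 and 1 of the adaptors, and, at 0.4, 1 negative regulator and 5 immediate early genes called higher in SC-Mono. They left 0 and 0 adaptors called higher and 0 and 0 immediate early genes called lower in SC-APC over SC-Mono. With total reads, 1 kinase was called higher in the first step and 0 immediate early genes lower in the second, and with all genes of the monocyte libraries 1 kinase was called higher. Effective length gave 1 kinase, 2 adaptors and 2 targets called lower in SC-APC, and a plain 2-fold change gave 1 target. Total reads moved the median active gene by -0.18 in the first step and all genes of the monocyte libraries by -0.20. Over all genes, the first step gave 1386 higher and 1073 lower calls, but 2623 and 1178 with no TPM limit, 906 and 449 with a coefficient of variation of 0.2, and 598 and 203 with 0.4. The second gave 188 and 165, but 232 and 320 with effective length, 385 and 292 with no TPM limit, 326 and 302 with a plain 2-fold change, 84 and 34 with 0.2, and 37 and 13 with 0.4. TPM as deposited moved the levels of the 10 genes in both monocyte libraries but not the ratio of inhibitors to subunits within a library. Beyond the construction of each alternative, the cause of these changes was not tested. The spread between mice was not measured, so the assumed values only show how large a spread each call would bear.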
